A study of Mus musculus with 20 samples.

Results

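The comparison described here set the juvenile hippocampus of 5 mice labelled heterozygous for *Adnp* against that of 5 mice labelled wild type (WT), in RNA sequencing with 1 library per mouse. Its members are the genes whose deposited value averaged at least 10 over these 10 libraries, which holds for 17474 of the 19258 genes in the table. The values are DESeq2-normalized counts, that is, estimated read counts divided by a factor for library size, and every value given below for a single library is in this unit. The series also holds 5 libraries per genotype from mice aged 4 months, which are different animals and are used only beside the juvenile values.

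All mice were male C57BL/6J, and the hippocampus was the tissue. The heterozygous mice, called Adnp-HT, descend from the tm1a allele of the KOMP resource, which had been backcrossed to C57BL/6J. A cross with Protamine-Flp mice and then 1 with Protamine-Cre mice gave a germline deletion of exon 5 on 1 *Adnp* allele, so every cell of the animal carries it. WT mice carry 2 intact alleles. By the paper's methods, weaning was at postnatal day 21, and littermates of mixed genotype shared cages by sex. The labels name no treatment. By the labels, the juvenile mice were 20 to 22 days old, with Adnp-HT replicate 3 and WT replicate 4 at day 20, Adnp-HT replicate 2 and WT replicate 1 at day 22, and the other 6 at day 21.

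ADNP is a zinc finger and homeodomain protein of the nucleus that binds DNA and takes part in complexes with the remodeller CHD4 and with heterochromatin protein. These complexes keep genes of other lineages silent, and ADNP binding sites overlap with those of CTCF, the protein that anchors chromatin loops. Loss-of-function mutations in 1 copy of the human gene cause a syndrome with intellectual disability and features of autism.

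Several features of the libraries bear on what follows. The normalized counts summed to between 32039815 and 32504088 in the 10 libraries, which the normalization makes alike, with 19127 to 19160 genes above 0. Pearson correlations between libraries on the log2 scale, across genes that are not independent, ran from 0.982 to 0.989. The first 3 principal components held 16.3%, 14.8% and 12.8% of the variance. WT replicate 3 stood apart on the first component at 41.7, with the other 9 libraries between −16.6 and 17.1, and WT replicate 2 stood apart on the second at −39.4. The postnatal days of Adnp-HT replicates 3 and 5 are uncertain, since the sample labels say 20 and 21 and the headers of the deposited columns say 21 and 20. Transcripts of the Y chromosome genes *Kdm5d*, *Eif2s3y*, *Ddx3y* and *Uty* were present in each library, as the male label requires.

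The value of the targeted gene alone went against the labels. A value for the whole gene cannot show the loss of exon 5. *Adnp* (ENSMUSG00000051149), on the minus strand of chromosome 2 from 168180986 to 168207112 in GRCm38, had 2672, 2419, 2458, 2092 and 2432 in Adnp-HT replicates 1 to 5 and 2235, 2197, 2204, 2187 and 2238 in WT replicates 1 to 5. Adnp-HT replicate 4 was the lowest of the 10 libraries and the other 4 Adnp-HT libraries were above every WT library. Mean *Adnp* was 109% of WT (two-sided exact permutation test, p = 0.0476), with a log2 fold change of 0.12 in limma (standard error 0.05, adjusted p = 0.542). Where a direction is drawn, the group is therefore called the libraries labelled Adnp-HT.

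*Gm20716*, a gene annotated across *Adnp* and its neighbour *Dpm1*, had 2134, 2396, 2193, 2642 and 2469 in the libraries labelled Adnp-HT and 2819, 2754, 2724, 3117 and 2585 in WT libraries. Adnp-HT replicate 4 was above WT replicate 5, and the other Adnp-HT libraries were below every WT library. *Dpm1*, which encodes the catalytic subunit of dolichol phosphate mannose synthase, had 751, 819, 996, 679 and 1033 against 563, 555, 554, 437 and 702. It was higher in 4 of the 5 Adnp-HT libraries than in any WT library, with Adnp-HT replicate 4 below WT replicate 5. The limma adjusted p was 0.146 for *Gm20716* and 0.0697 for *Dpm1*, so neither was called in juveniles. In adults both were called in the same directions, *Gm20716* at −0.65 (adjusted p = 3.80e-04) and *Dpm1* at 0.72 (adjusted p = 0.0481), and *Adnp* was 0.26 (adjusted p = 0.0913). *Gm20716* overlaps with both other genes and reads can be split between it and them, so each value on its own is uncertain. *Adnp* and *Gm20716* summed, the genes that hold exon 5, had 4806, 4815, 4651, 4734 and 4901 against 5054, 4950.3, 4928, 5305 and 4823. Adnp-HT replicate 5 was above WT replicate 5, and the other 4 Adnp-HT libraries were below every WT library. This sum was 95.4% of WT (exact permutation test, p = 0.0159), in the direction of the labels. With mice of postnatal day 21 alone it was 98.2%, where 3 against 3 libraries allow no exact p under 0.1. All 3 genes summed came to 101% of WT (exact permutation test, p = 0.579), and without Adnp-HT replicate 5 to 99.8%.

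With a threshold of 0.05 on the adjusted p, limma called 67 of the 17474 genes (0.383%). In the libraries labelled Adnp-HT, 50 were higher (0.286%) and 17 (0.0973%) were lower. At an unadjusted p under 0.05 there were 1495 genes. The median log2 fold change over all genes tested was −0.001 and 49.4% were positive, whereas it was 0.89 among called higher genes and −0.38 among called lower genes. The count depended on the fit. It was 31 without the trend of variance on abundance, 110 with all 20 libraries in 1 fit and 39 with genes of a mean of at least 100. It was 12 in mice of postnatal day 21 and 25 without both libraries of uncertain postnatal day, where fewer mice were compared. It was also 34 without Adnp-HT replicate 1, 32 without Adnp-HT replicate 3, 26 without Adnp-HT replicate 4, 43 without Adnp-HT replicate 5, 41 without WT replicate 3 and 43 without WT replicate 5. Of the 67 genes, 22 were called in all 10 fits with 1 library removed and 3 in none of them, and all 67 kept their sign in every such fit in which they were tested. For 64 of the 67 the 5 libraries labelled Adnp-HT did not overlap with the 5 WT libraries, as for 393 of all genes tested.

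Called higher genes were mostly of low abundance. Of the 50, 36 had a mean under 300, against 4 of the 17 called lower genes. Of all genes tested, 2302 had a mean from 10 to 30, 2339 from 30 to 100 and 2475 from 100 to 300. The share called in either direction was 0.478%, 0.513% and 0.687% in these classes. It was 0.348% of the 4027 genes from 300 to 1000 and 0.205% of the 6331 genes of at least 1000. Among the 2302 genes with a mean from 10 to 30, 9 were called higher and 2 lower, and among the 6331 genes with a mean of at least 1000, 6 were called higher and 7 lower. The mean covers both genotypes, so a gene can enter the lowest class through the group where it is high. *E230025N22Rik*, *Prss41*, *Gm36993*, *Gm13241*, *Aire* and *BC035947*, called higher, had WT means of 0.503, 2.15, 2.62, 3.12, 6.89 and 7.87. *Gm42893*, called lower, had an Adnp-HT mean of 3.05. The counts of that class therefore depend in part on the change itself. Among called genes the median absolute log2 fold change was 1.87 in the lowest of these classes and 0.24 in the highest. The median standard error was 0.29 and 0.05 in the same classes.

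**Figure D1:**
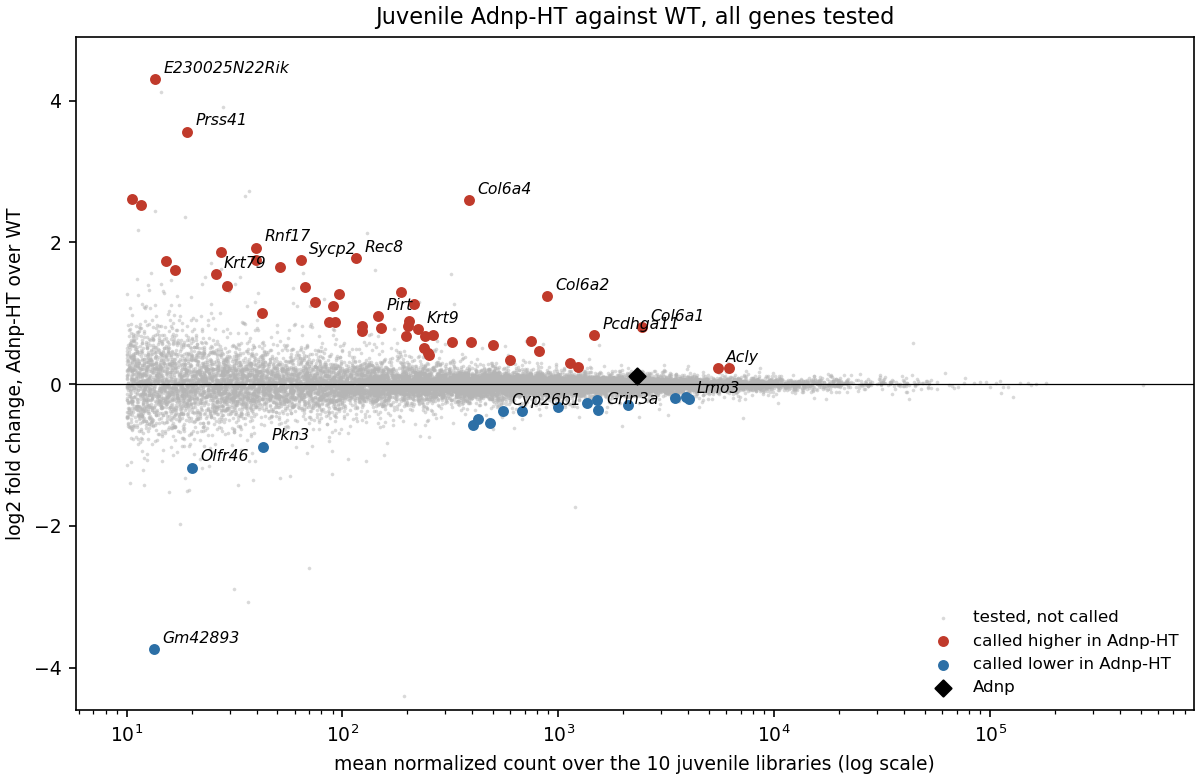
Log2 fold change of each tested gene, libraries labelled Adnp-HT over WT, against its mean normalized count over the 10 juvenile libraries (log scale). Red points are the 50 genes called higher, blue points 16 of the 17 called lower (*Gm12918*, listed at 0 in each Adnp-HT library, is not drawn), grey points the other genes tested, and the diamond *Adnp*.

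Genes of meiosis and the germ line are silent in most tissues outside the gonads. From a list of 32 such genes, 14 were expressed highly enough to be tested and 3 were called, each of them higher. Of these 3, *Prss41* passed the limit of 10 only through the libraries labelled Adnp-HT, with a mean of 36.0 against 2.15 in WT libraries. The count of 3 of 14 therefore depends in part on the change itself. This list and those below were also written with earlier results of these data known. Their counts of called genes can reflect that choice. *Prss41*, a serine protease known from the testis, had 43.3, 40.4, 38.0, 30.2 and 28.2 in Adnp-HT replicates 1 to 5 and 1.60, 1.41, 2.32, 2.94 and 2.47 in WT replicates 1 to 5. Every WT library was under 3 and every library labelled Adnp-HT above 28. The log2 fold change was 3.56 (standard error 0.27, adjusted p = 3.09e-05), and the call was kept in all 10 fits with 1 library removed. *Rec8*, which encodes the meiotic form of the cohesin ring's closing subunit, had 163, 172, 175, 181 and 202 against 59.9, 31.5, 73.4, 39.0 and 64.6. Its WT libraries spread widely, from WT replicate 2 to WT replicate 3, and were well below the Adnp-HT libraries, which lay close together. *Rec8* rose by 1.78 on the log2 scale (standard error 0.20, adjusted p = 8.69e-04), again in each of those 10 fits. *Sycp2*, a lateral element protein of the synaptonemal complex, had 76.9, 117, 157, 95.7 and 51.3 against 49.6, 27.8, 28.1, 18.5 and 20.1. Adnp-HT replicate 5 was only just above WT replicate 1, and Adnp-HT replicate 3 was far above the rest. Its log2 fold change of 1.74 (adjusted p = 0.0245) was called in 3 of the 10 fits, those without Adnp-HT replicate 5, WT replicate 1 or WT replicate 2, and reached an adjusted p of 0.0722 in the others.

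*Rnf17*, a tudor domain protein of germ cells that was not on the list, had 74.9, 76.8, 63.5, 75.1 and 27.8 in the libraries labelled Adnp-HT and 13.9, 10.4, 18.4, 11.3 and 24.8 in WT libraries. Adnp-HT replicate 5 lay close to WT replicate 5 while the other 4 were above 63. It rose by 1.93 on the log2 scale (adjusted p = 0.0149), and its call was lost without Adnp-HT replicate 1 (adjusted p = 0.0545) and without Adnp-HT replicate 4 (adjusted p = 0.0547).

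No other gene of the list was called, and 5 of the 14, the 3 called genes among them, had an unadjusted p under 0.05, beside 8.56% of all genes tested. *Sycp3*, a partner of *Sycp2* in the synaptonemal complex, had 15.7, 29.4, 24.0, 19.2 and 17.2 against 10.1, 5.76, 7.60, 9.59 and 18.1, with WT replicate 5 among the Adnp-HT values and a log2 fold change of 1.03 (adjusted p = 0.222). *Tdrd1*, a tudor domain protein of the piRNA pathway, had 47.0, 59.8, 54.8, 44.8 and 24.4 against 27.0, 24.3, 23.8, 27.6 and 18.1, with Adnp-HT replicate 5 inside the WT range. Its log2 fold change was 0.86 (adjusted p = 0.182). *Stag3*, the meiotic partner of *Rec8* in cohesin, gave −0.34 (adjusted p = 0.730), and the recombinase *Dmc1* gave −0.42 (adjusted p = 0.740). The germ cell RNA-binding genes *Ddx4* and *Dazl* gave 0.03 and 0.09 (adjusted p = 0.973 and 0.886). Over the list, 10 of 14 log2 fold changes were positive with a median of 0.18. These 6 uncalled genes were chosen after their values were seen. Without the 3 called genes the list summed to between 539 and 629 in the libraries labelled Adnp-HT and between 519.6 and 649.5 in WT libraries, which overlap.

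Because these 3 genes rose together, their promoters are shown, from 250 bases before to 50 bases after the start of the gene, from RefSeq on GRCm38.p6. *Prss41* lies at chr17:23844107-23844406 on the minus strand, *Rec8* at chr14:55617916-55618215 on the plus strand and *Sycp2* at chr2:178407609-178407908 on the minus strand, each written 5′ to 3′ along the gene. Capitals mark AGAGGGCG or AGGGGGCG on either strand, 2 spellings of the middle of the sequence that CTCF recognizes, chosen after these sequences were seen.
Prss41: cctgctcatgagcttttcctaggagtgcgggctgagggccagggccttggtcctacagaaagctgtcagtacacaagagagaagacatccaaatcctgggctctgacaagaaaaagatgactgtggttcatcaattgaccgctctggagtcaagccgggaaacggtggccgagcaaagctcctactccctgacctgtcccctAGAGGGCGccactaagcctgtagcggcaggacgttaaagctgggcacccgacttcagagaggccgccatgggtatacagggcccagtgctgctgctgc
Rec8: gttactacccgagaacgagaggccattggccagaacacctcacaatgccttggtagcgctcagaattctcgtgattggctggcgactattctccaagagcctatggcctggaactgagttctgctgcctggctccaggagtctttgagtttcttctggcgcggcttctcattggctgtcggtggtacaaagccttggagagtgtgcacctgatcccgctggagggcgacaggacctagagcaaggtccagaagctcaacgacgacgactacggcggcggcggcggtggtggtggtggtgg
Sycp2: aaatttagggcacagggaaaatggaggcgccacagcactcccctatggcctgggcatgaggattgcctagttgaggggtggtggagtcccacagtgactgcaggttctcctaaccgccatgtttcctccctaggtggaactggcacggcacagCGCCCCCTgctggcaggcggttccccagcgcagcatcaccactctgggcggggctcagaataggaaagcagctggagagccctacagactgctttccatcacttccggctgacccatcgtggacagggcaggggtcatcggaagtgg
AGAGGGCG stood in the *Prss41* window on the gene's strand, and AGGGGGCG stood in the *Sycp2* window on the opposite strand, read there as CGCCCCCT. Neither spelling was in the *Rec8* window. Of 32851 promoter windows of the same length, 3.04% held the first spelling, 6.07% the second and 8.75% either. A match describes the letters and does not show a bound site. A window was found for 46 of the 67 called genes (68.7%), and no count of matches over the called genes is given here.

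Collagens were next. Of 42 collagen genes tested, 3 were called, each higher, with 21 log2 fold changes above 0 and 21 below and a median of 0.01, which was 0.05 without WT replicate 3. The 3 called genes belong to collagen VI, a family of 6 genes that was examined as a whole after its values were seen. Collagen VI forms beaded microfibrils around cells, and its trimers join the chains of *Col6a1* and *Col6a2* with a chain from another gene of the family.

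*Col6a2*, on chromosome 10, had 1291, 1037, 1293, 1355 and 1275 in the libraries labelled Adnp-HT and 470.4, 489, 499, 586 and 602 in WT libraries. Adnp-HT replicate 2 was below the other 4 and still far above WT replicate 5. It rose by 1.24 on the log2 scale (standard error 0.09, adjusted p = 1.96e-05) and had the lowest p of the comparison. *Col6a1*, which starts 102.5 kb away, had 2947, 2510.1, 3128, 3127 and 3698 against 1731, 1690.5, 1234, 2535 and 1824. WT replicate 4 was just above Adnp-HT replicate 2, so the groups overlapped, and WT replicate 3 was the lowest. Its log2 fold change was 0.80 (standard error 0.15, adjusted p = 0.0327). That call was kept in 3 of the 10 fits, those without Adnp-HT replicate 2, WT replicate 3 or WT replicate 4, with an adjusted p up to 0.0911 in the others.

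On chromosome 9, *Col6a4* had 767, 742, 573, 766 and 392 against 108, 194, 26.4, 137 and 154. The lowest Adnp-HT library, replicate 5, was 2 times the highest WT library, replicate 2, and WT replicate 3 was far below the other WT libraries. It rose by 2.59 on the log2 scale (standard error 0.41, adjusted p = 0.0149), and without WT replicate 3 by 2.11 (adjusted p = 4.52e-04). Its call was lost without Adnp-HT replicate 1 (adjusted p = 0.0545) or Adnp-HT replicate 4 (adjusted p = 0.0547). *Gm36993*, annotated over *Col6a4* on the other strand, had 29.1, 15.7, 19.02, 15.3 and 13.2 against 2.01, 3.502, 0, 2.15 and 5.43. It rose by 2.61 (adjusted p = 0.0263), but the libraries are unstranded and its reads cannot be told from those of *Col6a4*. Its call was lost without Adnp-HT replicate 4 (adjusted p = 0.0657), Adnp-HT replicate 5 (0.0537), WT replicate 1 (0.0546) or WT replicate 4 (0.0582), and it was not tested without Adnp-HT replicate 1, 2 or 3.

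The neighbours of *Col6a4* on the same strand were higher without passing the threshold. *Col6a5* had 146, 119, 52.8, 113 and 143 against 73.1, 44.0, 31.7, 59.6 and 35.9, with Adnp-HT replicate 3 inside the WT range and the other 4 above it. Its log2 fold change was 1.20 (adjusted p = 0.112). *Col6a6* had 44.2, 30.2, 37.6, 28.1 and 39.0 against 18.7, 15.9, 31.1, 22.04 and 25.3, where WT replicate 3 overlapped with the Adnp-HT libraries and the log2 fold change was 0.66 (adjusted p = 0.314). *Col6a3*, alone on chromosome 1, overlapped in full, from 192 to 348 in Adnp-HT libraries and from 171 to 334 in WT libraries (log2 fold change 0.13, adjusted p = 0.897). All 6 collagen VI values were above 0. Among fibrillar and basement membrane collagens, *Col3a1* gave −0.50 (adjusted p = 0.574), *Col1a1* −0.13 (adjusted p = 0.856) and *Col4a2*, the most abundant member, −0.02 (adjusted p = 0.928), of which the first 2 were chosen after their values were seen. Collagens are made by meningeal and vascular cells, and the summed markers of meningeal fibroblasts ran from 7785 to 15721 in Adnp-HT libraries and from 9351 to 18766 in WT libraries. Their part in the collagen result was not tested.

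**Figure D2:**
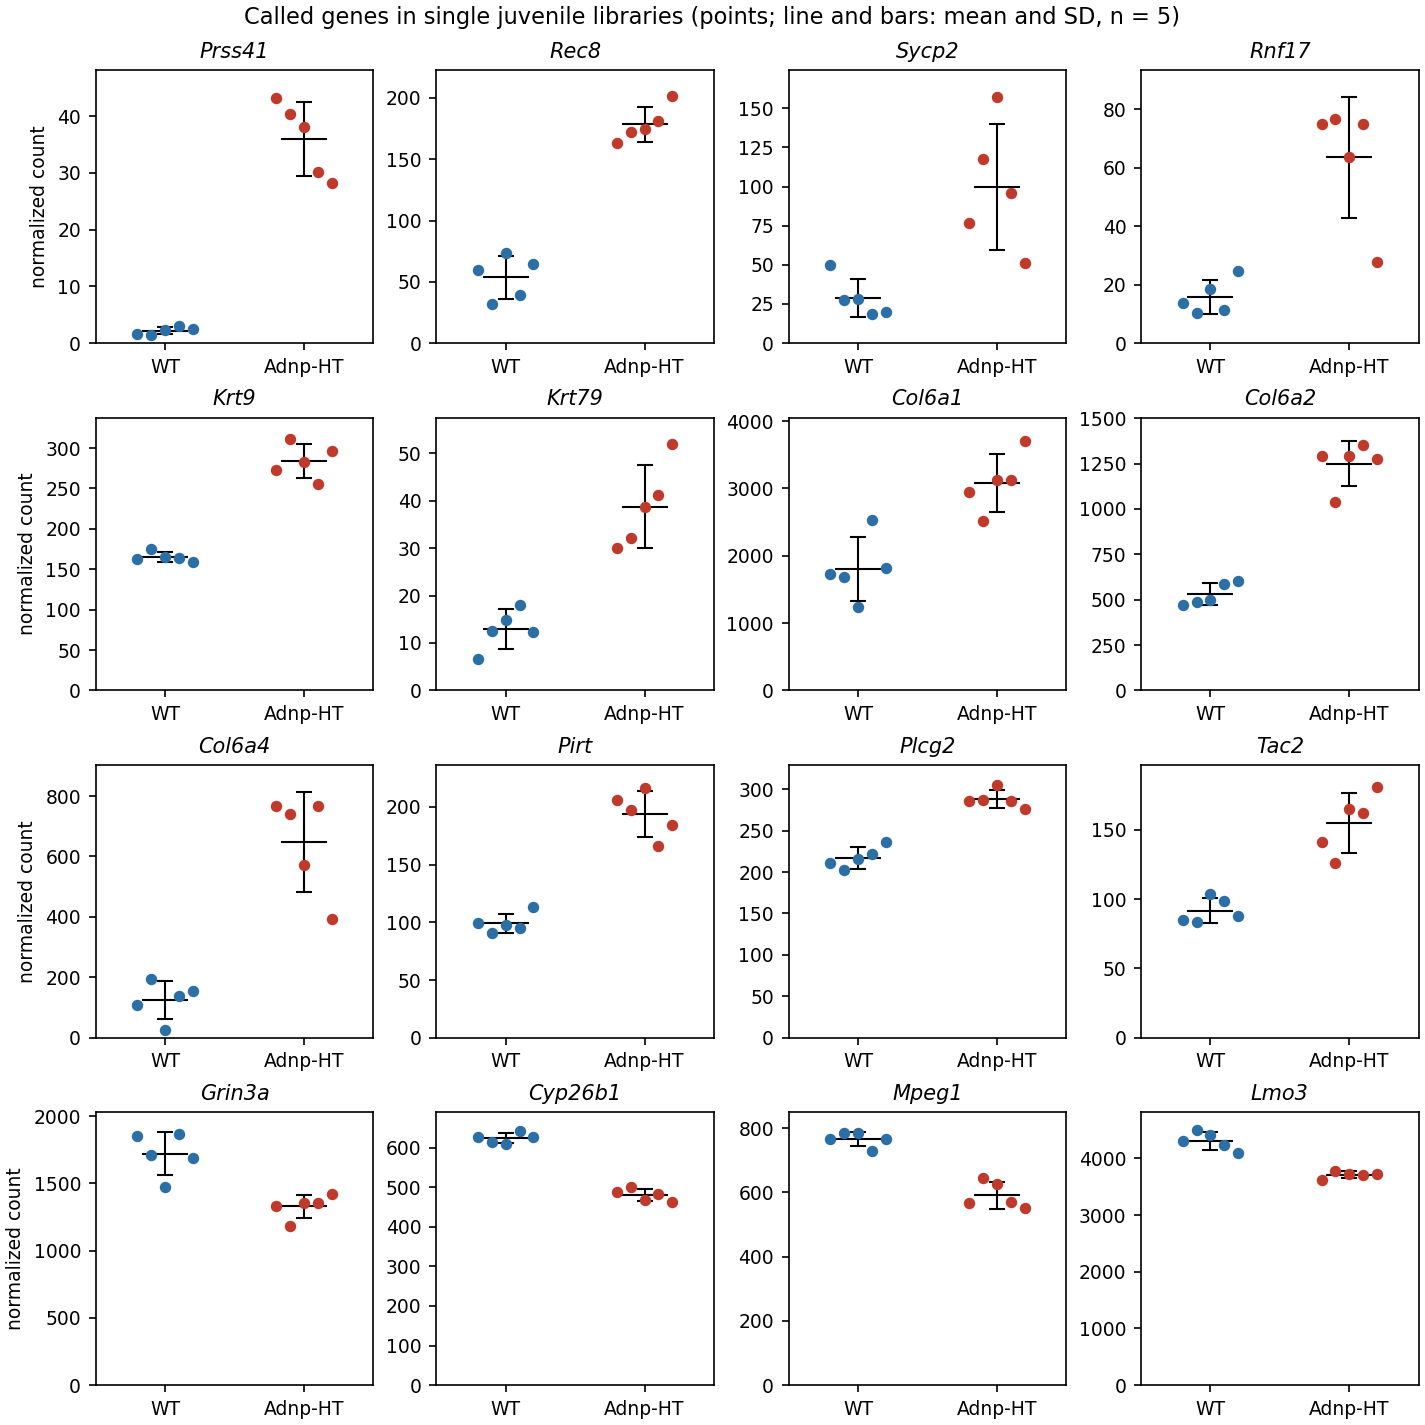
Normalized counts of 16 called genes in single juvenile libraries, WT in blue and Adnp-HT in red, with the mean as a line and the SD as bars (n = 5 per genotype). In 15 panels each Adnp-HT library lies on 1 side of every WT library, and in the *Col6a1* panel WT replicate 4 overlaps with Adnp-HT replicate 2.

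Keratins, the intermediate filament proteins of epithelia, had 18 genes tested, 2 called higher and 14 log2 fold changes above 0. Their median of 0.26 compares with −0.001 over all genes, and 8 had an unadjusted p under 0.05, beside 8.56% of all genes tested. *Krt9*, a keratin of palm and sole skin, had 273, 311, 283, 256 and 296 in the libraries labelled Adnp-HT and 163, 175, 165, 164 and 159 in WT libraries. The WT libraries lay within 16 counts of each other and every Adnp-HT library was above 250. It rose by 0.78 on the log2 scale (standard error 0.08, adjusted p = 3.04e-04), in all 10 fits with 1 library removed. *Krt79*, a keratin of hair follicle and sebaceous ducts, had 29.9, 32.0, 38.6, 41.2 and 52.0 against 6.69, 12.6, 14.8, 18.1 and 12.4, with no overlap and with Adnp-HT replicate 5 the highest. It rose by 1.55 (adjusted p = 0.0204), a call lost without Adnp-HT replicate 3, 4 or 5 (adjusted p = 0.0617, 0.0657 and 0.0632).

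*Krt12*, the keratin of the corneal epithelium, came close with 75.6, 75.9, 89.4, 72.5 and 74.4 against 61.5, 36.8, 39.6, 48.6 and 31.9. The groups did not overlap, and its log2 fold change of 0.85 had an adjusted p of 0.0595. *Krt28*, a keratin of the hair root sheath, had 18.2, 14.9, 13.8, 14.2 and 8.10 against 7.92, 6.87, 8.00, 7.29 and 5.21, where WT replicate 3 lay just under Adnp-HT replicate 5 (log2 fold change 0.85, adjusted p = 0.314). Every WT library was below 10, so *Krt28* passed the limit of 10 only through the libraries labelled Adnp-HT. The list holds tested keratins alone, so its count of positive values depends in part on the change itself. *Krt222*, the most abundant keratin here, gave 0.12 (adjusted p = 0.564). *Krt8* and *Krt18*, the pair found in simple epithelia, were the largest negative values at −1.40 and −1.06 (adjusted p = 0.564 and 0.695). Both were highest in WT replicate 3, at 51.3 and 77.1, where no other library was above 10.3. *Krt12*, *Krt28*, *Krt8* and *Krt18* were chosen after their values were seen. Without WT replicate 3, 16 keratins were tested, 14 were positive and the median was 0.27.

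Clustered protocadherins are adhesion proteins whose alternative first exons lie in tandem on chromosome 18, and a neuron uses a few of them at a time. All 57 on the list were tested, and 2 were called higher and 2 lower. The 4 called genes are all gamma genes of the A type. *Pcdhga11* had 1913, 1772, 1698, 1861 and 1805 in the libraries labelled Adnp-HT and 1122, 1128, 975, 1334 and 1075 in WT libraries, and *Pcdhga2*, 86.8 kb away, had 618, 489.5, 604, 615 and 644 against 385, 382, 394, 398 and 457. Both were higher in every Adnp-HT library, though Adnp-HT replicate 2 of *Pcdhga2* came close to WT replicate 5. Between them, *Pcdhga7* had 376, 362, 467, 353 and 404 against 570.0, 525, 577, 553 and 621, and *Pcdhga10*, 8.74 kb from *Pcdhga11*, had 344, 281, 293, 289.8 and 419 against 459, 497, 481, 487 and 484. Both were lower in every Adnp-HT library. Higher and lower genes were thus interleaved within 86.8 kb.

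The gamma genes share their last exons, so reads of those exons were divided among them by estimation and each gene is uncertain on its own. *Pcdhga10* was called in 4 of the 10 fits that left out 1 library, with adjusted p from 0.0528 to 0.0657 without Adnp-HT replicate 2, 3 or 4 or WT replicate 3, 4 or 5, and the other 3 in each of them. The rest of the cluster was more mixed than its median of −0.02 shows. Of the 57 genes, 28 had an unadjusted p under 0.05, beside 8.56% of all genes tested. Of the log2 fold changes, 27 were above 0 and 30 below. *Pcdhac1*, of the alpha cluster, had 359, 341, 368, 353 and 396 against 256, 285, 305, 317 and 296, without overlap (log2 fold change 0.32, adjusted p = 0.106). *Pcdhb7*, of the beta cluster, which lacks shared exons, had 188, 255, 259, 261 and 244 against 324, 331, 349.6, 356 and 291, also without overlap and in the other direction (log2 fold change −0.46, adjusted p = 0.0727). These 2 genes were chosen after their values were seen. *Pcdhgc5*, the most abundant member, gave 0.03 (adjusted p = 0.923). The summed count of the 57 genes ran from 31455 to 33697 in Adnp-HT libraries and from 31541 to 34157 in WT libraries, so the groups overlapped.

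Among 32 genes for calcium channels and calcium signalling, 2 were called higher and 11 were positive, with a median of −0.01 that was −0.02 without WT replicate 3. *Pirt*, a membrane protein of sensory neurons that binds phosphoinositides and tunes the TRPV1 channel, had 206, 197, 217, 166 and 184 in the libraries labelled Adnp-HT and 99.1, 91.2, 97.3, 95.1 and 113 in WT libraries. Even the lowest Adnp-HT library, replicate 4, was well above the highest WT library, replicate 5. It rose by 0.96 on the log2 scale (standard error 0.10, adjusted p = 4.67e-04). *Plcg2*, a phospholipase that cleaves a phosphoinositide to release calcium from stores, had 285, 286, 305, 286 and 275 against 210.4, 202, 216, 221 and 236. The groups did not overlap and the change was small, 0.41 on the log2 scale (adjusted p = 0.0247), called in 2 of the 10 fits, those without Adnp-HT replicate 5 or WT replicate 5, with an adjusted p up to 0.0753 in the others. *Hpca*, the most abundant gene of this list, encodes the calcium sensor hippocalcin and gave 0.13 (adjusted p = 0.351).

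The next called genes are on none of the lists, were not tested as a group and were chosen after their values were seen. *Tac2*, the precursor of the neuropeptide neurokinin B, had 142, 126, 165, 162 and 181 in the libraries labelled Adnp-HT and 84.9, 83.4, 104, 98.9 and 87.6 in WT libraries, without overlap. It rose by 0.75 (adjusted p = 0.0149), and lost its call without Adnp-HT replicate 3 (adjusted p = 0.0520) or 4 (adjusted p = 0.0547). *Glp2r*, the receptor for a gut peptide related to glucagon, had 282, 274, 268, 303 and 279.8 against 204, 181, 169, 230.4 and 207 and starts 859 kb from *Pirt*. It rose by 0.51 (adjusted p = 0.0263), in 1 of the 10 fits, that without WT replicate 4, with an adjusted p up to 0.0795 in the others. *Scn7a*, a sodium channel relative that senses sodium level, had 144, 158, 154, 163 and 164 against 100.2, 102, 56.7, 92.2 and 97.7. WT replicate 3 was the lowest of its 10 values, and without that library its log2 fold change went from 0.82 (adjusted p = 0.0299) to 0.67 (adjusted p = 0.00959). Its call was also kept without WT replicate 1 or 2, and its adjusted p reached 0.0846 in the other fits. *Plch2*, another phospholipase C and one of the most abundant called genes, had 6603, 6929.8, 6260.5, 6808 and 6732 against 5748, 6039, 5380.1, 5928 and 5478, a rise of 0.22 (adjusted p = 0.0299) that was called in 3 of the 10 fits, those without Adnp-HT replicate 3, WT replicate 2 or WT replicate 4, with an adjusted p up to 0.0843 in the others.

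Other genes called higher were diverse. *Aire*, the regulator that lets the thymus express tissue genes, had 34.4, 21.9, 19.5, 19.5 and 22.5 in the libraries labelled Adnp-HT and 3.35, 6.47, 4.47, 13.9 and 6.31 in WT libraries, with Adnp-HT replicate 1 the highest and WT replicate 4 near the Adnp-HT libraries. *Best1*, a chloride channel, had 60.2, 45.8, 73.0, 45.6 and 78.9 against 41.3, 11.6, 15.7, 11.7 and 15.4, and WT replicate 1 stood far above the other WT libraries. Both rose, by 1.74 and 1.75 on the log2 scale (adjusted p = 0.0384 and 0.0276), and both lost the call in most fits that left out 1 library. *Aire* kept it without WT replicate 4, and *Best1* without Adnp-HT replicate 2 or WT replicate 1. Their adjusted p reached 0.112 and 0.0846 in the other fits.

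*E230025N22Rik*, a protein-coding gene of chromosome 18 without an assured role, had 24.4, 27.8, 22.7, 33.6 and 24.4 against 0, 0, 0, 0.969 and 1.54. It was listed at 0 in 3 WT libraries, so the size of its log2 fold change, 4.31 (adjusted p = 1.01e-04), depends on the pseudocount. *E2f2*, a transcription factor that opens the cell cycle, had 92.6, 70.1, 82.2, 102 and 141 against 35.1, 34.6, 27.8, 48.9 and 36.7 and was chosen after its values were seen. It rose by 1.37 (adjusted p = 0.00786) in each of the 10 fits, while *Mki67* and *Top2a*, genes of dividing cells, gave −0.14 and 0.11 (adjusted p = 0.835 and 0.910). *Man2b2*, a lysosomal mannosidase chosen in the same way, had 969.9, 866, 819, 849 and 1028 against 620.4, 555, 661, 557 and 578, with no overlap, and rose by 0.61 (adjusted p = 0.00144).

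Some called genes cannot be separated from copies of themselves or from genes on the other strand. *Gm13241*, *Znf41-ps* and *Zfp992*, zinc finger genes or pseudogenes on chromosome 4 with similar sequences, rose by 2.53, 1.31 and 1.27, the last 2 chosen after their values were seen. *Znf41-ps* had 216, 277, 284, 252 and 297 in the libraries labelled Adnp-HT and 103, 76.9, 116, 133 and 111 in WT libraries, with no overlap. *Gm13241*, from 16.4 to 26.8 against 1.09 to 5.97, lost its call without Adnp-HT replicate 4 (adjusted p = 0.0547) and was not tested without Adnp-HT replicate 3. *Xlr3a*, a member of a repeated family on the X chromosome, and *BC035947* rose by 1.66 and 1.61 (adjusted p = 0.0207 and 0.0364), and their calls were kept in 5 and 2 of the 10 fits, with an adjusted p up to 0.0657 without Adnp-HT replicate 4 and up to 0.103 without Adnp-HT replicate 3. The noncoding transcripts *Abhd11os* and *Gm7932* rose by 1.87 and 1.38 (adjusted p = 0.0209 and 0.0126), of which the second was called in each of the 10 fits and the first in 6, with an adjusted p of 0.0667 without Adnp-HT replicate 5. *Gm12918*, a processed pseudogene, was listed at 0 in each library labelled Adnp-HT and in WT replicate 1, and at 319 to 620.2 in the other 4 WT libraries. *Gm42893*, an antisense transcript, was at 0 in 4 Adnp-HT libraries and at 15.2 in Adnp-HT replicate 4, above WT replicates 3 and 5. Both were called lower (adjusted p = 0.0454 and 0.0382) and both calls were kept in 1 of the 10 fits, that without WT replicate 1 for the first and without Adnp-HT replicate 4 for the second. The adjusted p reached 0.125 without WT replicate 3 for *Gm12918* and 0.103 without Adnp-HT replicate 5 for *Gm42893*.

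Called lower genes changed less and were more abundant. *Cyp26b1*, the enzyme that degrades retinoic acid, had 489, 500.3, 469, 483 and 463 in the libraries labelled Adnp-HT and 628, 615, 610.0, 641 and 627 in WT libraries. Each group lay within a narrow band and the bands were over 100 counts apart. It fell by 0.38 on the log2 scale (standard error 0.05, adjusted p = 0.00331) in all 10 fits with 1 library removed. *Mpeg1*, a pore-forming protein of macrophages and microglia, had 565, 646, 626, 568 and 550.1 against 767, 783, 786, 729 and 765, without overlap. It fell by 0.38 (standard error 0.06, adjusted p = 0.0116), also in each of them. Of the 12 genes on the microglia list, which does not hold *Mpeg1*, limma called 0 and 0 had an unadjusted p under 0.05, and *Csf1r*, the growth factor receptor of these cells, gave −0.05 (adjusted p = 0.829).

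*Grin3a*, an NMDA receptor subunit that lowers calcium entry through the receptor, was the 1 called gene among 25 glutamate receptor genes. It had 1329, 1184, 1354, 1354 and 1423 against 1854, 1714, 1471, 1865 and 1689, with WT replicate 3 the lowest WT library and just above Adnp-HT replicate 5. It fell by 0.37 (standard error 0.07, adjusted p = 0.0299), and without WT replicate 3 by 0.42 (adjusted p = 0.00610). The call was kept without Adnp-HT replicate 5 as well and lost in the other 8 fits, with an adjusted p up to 0.0831. Of the 25 genes, 18 were negative, with a median of −0.03 and 2 at an unadjusted p under 0.05, beside 8.56% of all genes tested. *Grm3*, a metabotropic receptor chosen after its values were seen, was the other, with 901, 943, 910.0, 888 and 921 against 1006, 1105, 1020.3, 1045 and 1034. Its groups did not overlap and its log2 fold change was −0.19 (adjusted p = 0.0948). The main NMDA and AMPA receptor genes *Grin1*, *Grin2a*, *Grin2b* and *Gria2* gave 0.01, −0.03, −0.01 and 0.001 (lowest adjusted p = 0.914).

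*Lmo3*, a partner of transcription factors, had 3616, 3772, 3732, 3708 and 3735 in the libraries labelled Adnp-HT and 4312, 4497, 4415, 4239.6 and 4097 in WT libraries and fell by 0.22 (adjusted p = 0.0131) in each of the 10 fits. *Slc9a2*, a sodium and proton exchanger, had 916, 887, 858, 895 and 864 against 1109, 1227, 1049.7, 1097 and 1044, again without overlap, and fell by 0.32 (adjusted p = 0.0149), a call lost without Adnp-HT replicate 3 (adjusted p = 0.0509). *Dpy19l3*, an enzyme that attaches mannose to tryptophan, fell by 0.30 (adjusted p = 0.0172), and the adhesion protein *Alcam* fell by 0.20 (adjusted p = 0.0272). These 4 genes were chosen after their values were seen. *Rflnb*, which binds filamin, fell by 0.48 (adjusted p = 0.0465), the kinase *Pkn3* by 0.88 (adjusted p = 0.0299) and the olfactory receptor *Olfr46* by 1.18 (adjusted p = 0.0332). *Olfr46* had 12.8, 13.2, 10.8, 9.78 and 12.6 against 31.9, 32.2, 27.2, 31.3 and 19.04, few reads in every library. Of the 10 fits, the call of *Dpy19l3* was kept in 7, that of *Pkn3* in 2 and those of *Alcam*, *Rflnb* and *Olfr46* in 1 each. *Dpy19l3* lost it without Adnp-HT replicate 1, Adnp-HT replicate 4 or WT replicate 5 (adjusted p = 0.0545, 0.0564 and 0.0532). *Pkn3* kept it without WT replicate 2 or 4, *Alcam* without WT replicate 2, *Rflnb* without WT replicate 1 and *Olfr46* without WT replicate 5, and in the other fits their adjusted p reached 0.0920, 0.0842, 0.126 and 0.0939.

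Another 20 called genes were on none of the lists and were chosen after their values were seen. *Gstm6*, a glutathione transferase with near copies beside it, had 234, 272, 263, 265 and 253 in the libraries labelled Adnp-HT and 132, 158, 146, 146 and 143 in WT libraries, without overlap. *Vstm5*, an immunoglobulin domain protein of neuronal membranes, had 359.7, 329, 309, 290.4 and 338 against 206, 178, 206, 196 and 219, also without overlap. They rose by 0.83 and 0.69 on the log2 scale (adjusted p = 3.04e-04 and 0.00144). The long noncoding RNA *AC171111.1*, the little studied gene *BC024139* and *Clec18a*, a lectin with near copies, rose by 1.14, 1.099 and 1.16 (adjusted p = 1.01e-04, 0.00143 and 0.00386). These 5 were called in all 10 fits with 1 library removed.

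*Cracr2a*, a regulator of calcium entry, rose by 0.88, the scaffold *Card10* by 0.60 and *Ehd2*, a protein of caveolae, by 0.59 (adjusted p = 0.0138, 0.0170 and 0.0156). *Cracr2a* lost its call without Adnp-HT replicate 4 (adjusted p = 0.0540), *Ehd2* without Adnp-HT replicate 3 (adjusted p = 0.0520) and *Card10* without Adnp-HT replicates 1, 3 or 4 (adjusted p up to 0.0584). *Spef2* and *Stpg1*, named for the sperm tail, rose by 0.80 and 0.90 (adjusted p = 0.0215 and 0.0299), calls kept in 5 and 4 of the 10 fits, with an adjusted p up to 0.0653 without Adnp-HT replicate 2 for the first and 0.0817 without Adnp-HT replicate 4 for the second. *Sspo*, a secreted protein of the subcommissural organ, rose by 0.69 (adjusted p = 0.0361), kept in 2 of the 10 fits and at most 0.0983, without Adnp-HT replicate 2. *Ifitm2* and the pseudogene *Rps4l*, both with near copies, rose by 0.69 and 0.47 (adjusted p = 0.0204 and 0.0207, and 0.0657 for each without Adnp-HT replicate 4), each call kept in 5 of the 10 fits.

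The last 7 calls were lost in most fits with 1 library removed, and the highest adjusted p of those fits is given for each. The synuclein gene *Sncg* rose by 0.87 (adjusted p = 0.0361, and 0.102 without Adnp-HT replicate 3) and *Stxbp2*, a protein of vesicle fusion, by 0.30 (adjusted p = 0.0465, and 0.126 without Adnp-HT replicate 5). *Hoga1*, an enzyme of mitochondria, rose by 1.01 (adjusted p = 0.0299, and 0.0846 without Adnp-HT replicate 5). The prostaglandin transporter *Slco2a1* rose by 0.44 (adjusted p = 0.0382, and 0.106 without Adnp-HT replicate 5) and the phosphatase *Lhpp* by 0.34 (adjusted p = 0.0406, and 0.113 without WT replicate 5). *Slc29a4*, a monoamine transporter, fell by 0.27 (adjusted p = 0.0343, and 0.0932 without WT replicate 4). *Acsbg1*, which activates long fatty acids, fell by 0.18 (adjusted p = 0.0454, and 0.126 without WT replicate 5). The call of *Acsbg1* was kept in 0 of the 10 fits, that of *Lhpp* in 1 and those of *Sncg*, *Stxbp2*, *Hoga1*, *Slco2a1* and *Slc29a4* in 2 each.

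The other function lists held no called gene. Of 16 function lists, 6 held a called gene, and 15 of the 67 called genes were on a list. In the other 10, limma called 0 genes, and the count at an unadjusted p under 0.05 was 6 of 26 presynaptic release genes, 6 of 34 imprinted genes, 5 of 24 postsynaptic scaffolds and kinases, 3 of 14 perineuronal net genes, 2 of 16 microtubule proteins and 0 of 20 inhibitory synapse genes. It was 1 for chromatin remodelling subunits, for immediate early genes and for circadian and glucocorticoid genes, and 0 of 15 for neurogenesis and cell division. Across all genes tested the share was 8.56%.

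Of 24 postsynaptic scaffolds and kinases, 21 were negative with a median of −0.03. The scaffold *Homer3* was the exception with the lowest p, at 2194, 2106, 1813, 2079.6 and 2047 against 1765, 1867, 1824, 1859 and 1638 and a log2 fold change of 0.19 (adjusted p = 0.203), where WT replicates 2, 3 and 4 were above Adnp-HT replicate 3. Of 20 inhibitory synapse genes 18 were negative, with a median of −0.03 and *Gabrb2*, a GABA receptor subunit, lowest in p (−0.11, adjusted p = 0.671). *Sv2c*, a synaptic vesicle protein, had 805, 762, 763, 735 and 754 against 832, 978, 902, 847 and 1036, without overlap (log2 fold change −0.26, adjusted p = 0.120). The release machinery gene *Snap25* gave 0.05 (adjusted p = 0.691) and the kinase *Camk2a* −0.04 (adjusted p = 0.865), and with quantile normalization *Camk2a* turned to 0.05.

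Among partners of ADNP and subunits of remodelling complexes, 10 of 26 were positive with a median of −0.01. *Chd4*, the remodeller that binds ADNP, had 8545, 7613, 7312, 8164 and 8005 against 6746, 7565, 7304, 7045 and 7121, and WT replicate 2 was above Adnp-HT replicate 3 (log2 fold change 0.15, adjusted p = 0.247). *Ctcf* gave −0.02 and *Adnp2*, the paralogue of *Adnp*, 0.01 (adjusted p = 0.955 and 0.978), and both were chosen after their values were seen. *Snrpn*, the most significant imprinted gene, gave 0.14 (adjusted p = 0.0545), and *Meg3*, the most abundant, 0.02. In the other lists the genes with the lowest p were *Ptprz1* (−0.11), *Dusp6* (0.16), *Per3* (−0.08), *Sox4* (−0.07) and *Stmn2* (0.13), with adjusted p from 0.334 to 0.774. List medians were −0.07 for perineuronal net genes, 0.02 for immediate early genes, −0.07 for circadian and glucocorticoid genes, −0.03 for neurogenesis, 0.03 for microtubule proteins, 0.02 for imprinted genes and 0.01 for presynaptic release. Without WT replicate 3 the median of immediate early genes turned to −0.04, with 7 of 20 positive. Medians for neurogenesis, microtubule proteins, imprinted genes and presynaptic release were then nearer to 0, at −0.009, 0.007, 0.005 and 0.006, and that for partners of ADNP was −0.02.

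**Figure D3:**
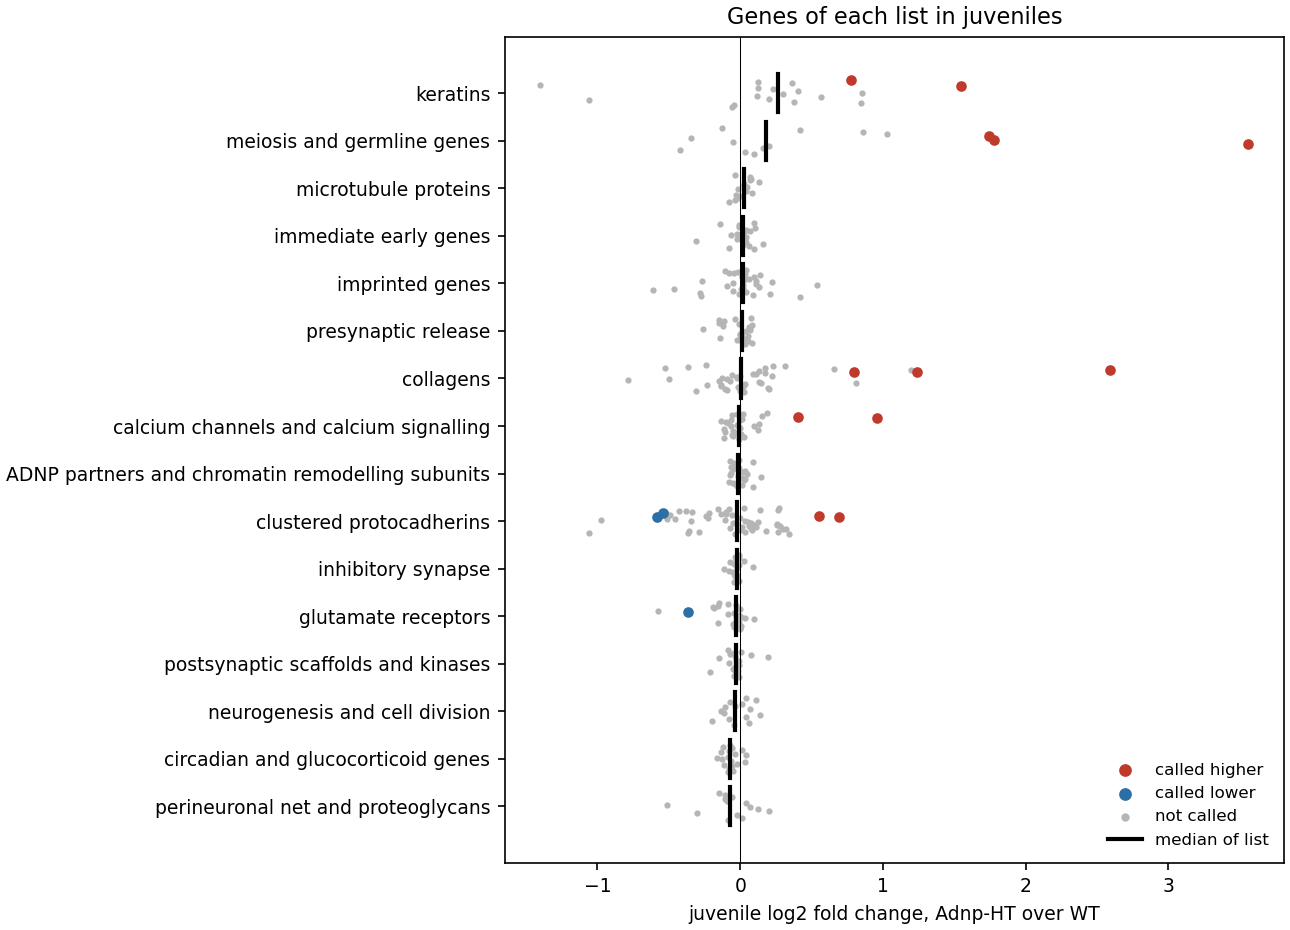
Juvenile log2 fold change of the tested genes in each of the 16 function lists, libraries labelled Adnp-HT over WT. Red and blue points are called genes, grey points are not called, and the bar is the median of the list, which lies farthest from 0 for keratins and for meiosis and germline genes.

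The most abundant members of these lists changed little. *Smarcc2*, a subunit of the BAF remodeller, gave −0.04 (adjusted p = 0.815), the GABA B receptor gene *Gabbr1* −0.01 (adjusted p = 0.955) and *Tnr*, a glycoprotein of perineuronal nets, −0.11 (adjusted p = 0.543). *Arc*, an immediate early gene of synapses, gave 0.10 (adjusted p = 0.896) and the clock-driven factor *Tef* −0.06 (adjusted p = 0.754). The tubulin *Tubb3* and the motor *Kif5a* gave 0.04 and −0.04 (adjusted p = 0.842 and 0.913).

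Markers of the hippocampus and of other cell types were read in every library. The markers of hippocampal pyramidal and granule neurons, the tissue's own, summed to between 94519 and 111470, and those of cortex, striatum and thalamus to between 7306 and 8839. None of the 11 marker lists held a gene called by limma. The numbers at an unadjusted p under 0.05 were 6 of 14 for hippocampal neurons, 5 of 10 for astrocytes, 3 of 15 for cortex, striatum and thalamus, 3 of 14 for inhibitory neurons, 2 of 9 for oligodendrocyte precursors, 2 of 11 for meningeal fibroblasts and 1 of 12 for endothelial cells and pericytes. They were 0 for myelinating oligodendrocytes, microglia, choroid plexus and red blood cells. Over all genes tested the share was 8.56%, and genes of a list are not independent of each other in the same libraries.

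*Prox1*, the marker of dentate granule cells, had 4650.5, 5339, 4667, 4605 and 4493 in the libraries labelled Adnp-HT and 5064, 5773, 5451, 5583 and 5613 in WT libraries. Adnp-HT replicate 2 was above WT replicate 1 and the other 4 were below every WT library (log2 fold change −0.21, adjusted p = 0.106). It was lowest in p of the 14 hippocampal neuron markers, of which 6 had positive and 8 negative log2 fold changes. The next 2 by p were positive, *Hpca*, a calcium sensor, at 0.13 and *Neurod6*, a transcription factor, at 0.13 (adjusted p = 0.351 and 0.392). After them came *Mef2c*, *Dsp* and *Zbtb20*, which were negative at −0.24, −0.27 and −0.20 (adjusted p = 0.438, 0.510 and 0.565). The summed count of 10 astrocyte markers ran from 166343 to 183714 in the libraries labelled Adnp-HT and from 181854 to 194404 in WT libraries. Adnp-HT replicate 1 was above WT replicate 1 and the other 4 Adnp-HT libraries were below every WT library. The list had 8 of 10 markers negative and a median of −0.11, with *Slc1a3*, a glutamate transporter, lowest in p (−0.11, adjusted p = 0.251). The 9 markers of oligodendrocyte precursors summed to 28899 to 30634 against 31078 to 32380, and these ranges did not overlap. Of the 9 log2 fold changes, 7 were negative and 2 positive, up to 0.23. *Tnr*, which is also on the perineuronal net list, averaged 11677 of a mean sum of 29926 in Adnp-HT libraries. In WT libraries it averaged 12557 of 31645 (adjusted p = 0.543). *Pdgfra*, the growth factor receptor that defines these cells, had 2684, 2563, 2586, 2262 and 2519 against 2771, 2690.4, 2976, 3029 and 3056, again without overlap (log2 fold change −0.20, adjusted p = 0.139). In bulk tissue, fewer cells of a type and less RNA per cell cannot be told apart.

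Other marker genes varied without passing the threshold. *Ramp3*, a receptor partner used as a marker of thalamus, was lowest in p of its list (−0.67, adjusted p = 0.147), *Cnr1*, the cannabinoid receptor, of inhibitory neurons (0.18, adjusted p = 0.152) and *Acta2*, smooth muscle actin, of vessels (−0.62, adjusted p = 0.396). For *Igf2* of the meninges, *Myrf* of oligodendrocytes and *Hba-a2* of red blood cells the log2 fold changes were −0.46, 0.12 and −0.32 (adjusted p = 0.514, 0.674 and 0.841). Among abundant markers the values were 0.07 (*Calb2*), −0.12 (*Slc1a2*), 0.02 (*Mbp*), 0.06 (*Rgs5*), 0.03 (*Ptgds*) and −0.25 (*Hbb-bs*). Medians of the marker lists were −0.13 for hippocampal neurons, −0.07 for cortex, striatum and thalamus, 0.05 for inhibitory neurons, 0.02 for myelinating oligodendrocytes, −0.05 for oligodendrocyte precursors, −0.01 for microglia, −0.08 for endothelial cells, −0.13 for meningeal fibroblasts and −0.29 for red blood cells. Without WT replicate 3 they were −0.08 for hippocampal neurons, −0.02 for cortex, striatum and thalamus, 0.03 for inhibitory neurons and −0.008 for microglia, each moved by over 1.5 times. Of the genes that check the label, *Kdm5d* on the Y chromosome gave −0.13 and *Eif2s3x* on the X chromosome 0.05 (adjusted p = 0.566 and 0.781). *Nnt*, which C57BL/6J lacks in part, has 2 gene entries and neither was called.

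The choroid plexus, an epithelium that borders the hippocampus in the ventricle, marked the WT library that stood apart. Its 10 markers summed to 62821 in WT replicate 3, to 717 to 817 in the other WT libraries, and to 860.1, 608, 1396, 3206 and 592 in Adnp-HT replicates 1 to 5. *Ttr*, transthyretin, made up 91.8% of the sum in WT replicate 3, where it was 57648. *Ttr* was 2463 in Adnp-HT replicate 4 and 760.3 in Adnp-HT replicate 3, and from 13.8 to 192 in the other 7 libraries. No choroid plexus marker was at 0 in any library. The 10 markers had a median log2 fold change of −0.50, and without WT replicate 3 the 8 that could still be tested had a median of 0.28. *Prlr*, the prolactin receptor, was the lowest in p (−0.82, adjusted p = 0.602). Without this library 41 genes were called, 40 of them among the 67. Its part in the count beyond that was not tested. Red blood cell markers, from 6366 to 19137, varied as widely within each genotype as between them.

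**Figure D4:**
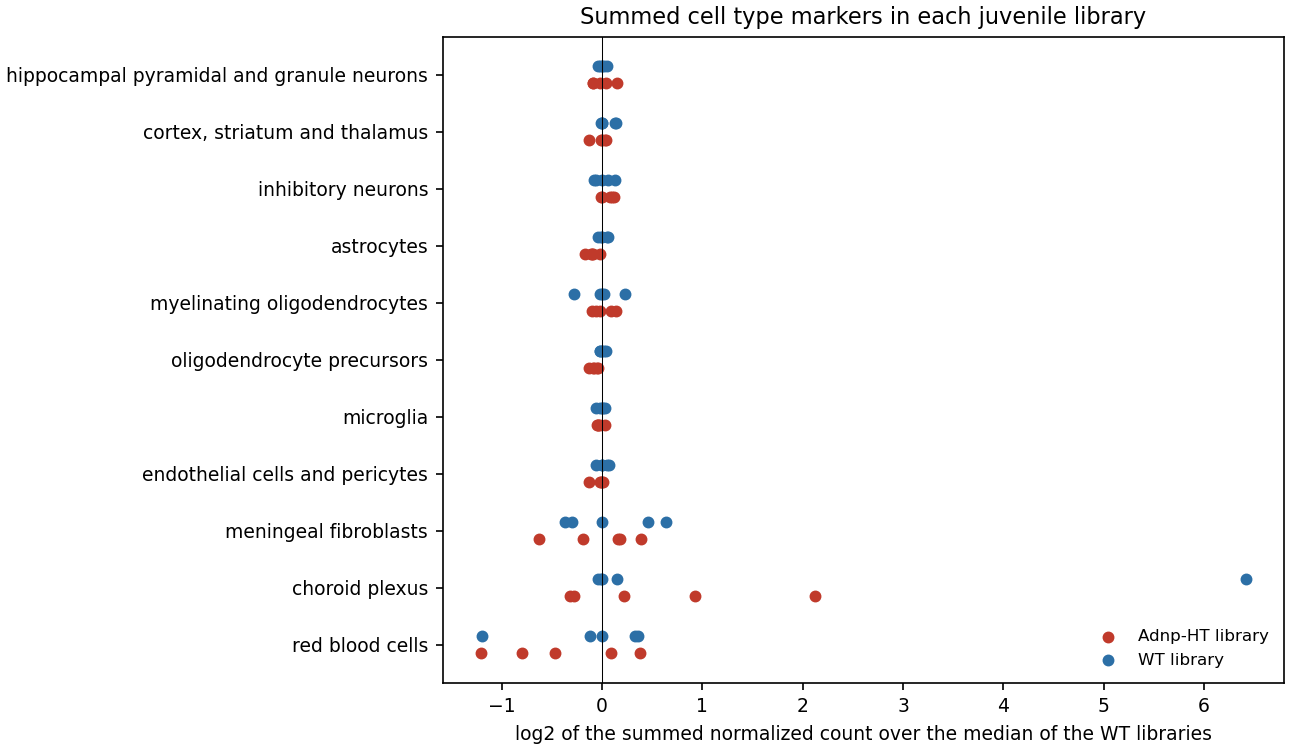
Summed normalized counts of 11 lists of cell type markers in each juvenile library, as log2 over the median of the 5 WT libraries, with libraries labelled Adnp-HT in red and WT libraries in blue. WT replicate 3 stands far to the right for choroid plexus, and the precursors of oligodendrocytes are the list whose 2 groups do not overlap.

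Called genes often lay near each other, a feature looked for after the genes were known. Measured between the lower coordinates of genes, another called gene lay within 1 Mb of 24 of the 67 (35.8%), where 9.39% of all genes tested have a called gene that near. Measured between starts by strand, the shares were 35.8% and 9.42%. Within 500 kb they were 23.9% and 5.40%, and within 2 Mb 37.3% and 15.3%. Within 1 Mb and without the 4 protocadherins, the shares were 30.2% and 9.18%. Without these, *Gm36993*, *Gm13241*, *Zfp992* and *Znf41-ps*, whose reads cannot be told from those of neighbours or copies, they were 23.7% and 9.10%, with 14 genes near another. Of the 18 pairs, 13 (72.2%) had both genes changed in the same direction, as did 61.6% of all pairs of called genes. The 13 hold the pairs among *Znf41-ps*, *Zfp992* and *Gm13241* and that of *Col6a4* with *Gm36993*, whose reads cannot be told apart. The 18 also hold the pairs among the 4 protocadherins, which share exons. The share in the same direction was not tested without these pairs. Besides *Col6a1* with *Col6a2* and *Pirt* with *Glp2r*, the 13 pairs include *Rec8* with *Rnf17*, 784.5 kb apart on chromosome 14, *Stpg1* with *E2f2* on chromosome 4, *Sspo* with *Gm7932* on chromosome 6, and *Krt9* with *Acly*, 334.8 kb apart on chromosome 11. *Acly*, an enzyme that makes acetyl-CoA and was chosen after its values were seen, had 5815, 5731, 5663, 6366 and 5881 against 5121, 5073, 4889, 5400.4 and 4695 and rose by 0.23 (adjusted p = 0.0382), a call kept in 1 of the 10 fits, that without WT replicate 4, with an adjusted p up to 0.112 without WT replicate 3. *Olfr46* and *Ifitm2*, 354.7 kb apart on chromosome 7, moved in opposite directions.

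Genes linked to *Adnp* on chromosome 2 could carry sequence from the line in which the allele was made, so they were counted on their own. Within 5 Mb of *Adnp* 107 genes were tested and 1 was called, *Fam210b*, which encodes a mitochondrial membrane protein. *Fam210b* had 1279.6, 1343, 1359.5, 1276 and 1439 in the libraries labelled Adnp-HT and 1191, 1137, 1112, 1146 and 1064 in WT libraries, without overlap, and rose by 0.24 (adjusted p = 0.0437), a call kept in none of the 10 fits that left out 1 library, with an adjusted p from 0.0521 without WT replicate 1 to 0.119 without WT replicate 5. In this window 14 of 107 genes had an unadjusted p under 0.05, *Adnp*, *Gm20716* and *Dpm1* among them. That is 13.1%, beside 8.56% of all genes. *Sycp2* lies on the same chromosome 10.1 Mb away. Called genes lay on 18 chromosomes, and they resembled other genes in kind, with 86.6% protein coding beside 85.2% of all tested and a median longest transcript of 3512 bases beside 3201. The median GC content of their transcripts was 52.6% beside 49.4%.

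The adult libraries, from other mice, were read for the same genes. In adults limma called 112 of 17606 genes (0.636%). Of the 50 juvenile called higher genes 49 were tested in adults, and 49 were higher there, 23 of them called, at a median log2 fold change of 0.73 beside 0.88 for juveniles. Of the 17 called lower genes 16 were tested, 14 were lower in adults, and the median went from −0.37 to −0.17 with 1 called. Since both sets were called by their juvenile values, their medians can lie nearer to 0 in adults through that choice alone. Among all 17132 genes tested at both ages, 56.5% had the same sign. The interaction of genotype and age, fitted with limma over all 20 libraries, called 0 of 17132 genes (0%), with 1114 at an unadjusted p under 0.05, and its lowest adjusted p among the juvenile called higher genes was 0.396. No gene is therefore shown to differ between ages.

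Side by side, juvenile and adult log2 fold changes were 1.55 and 1.88 for *Krt79*, *Sycp2* 1.74 and 1.89, *Tac2* 0.75 and 0.79, and *Plcg2* 0.41 and 0.78. The adult adjusted p were 0.0299, 0.00345, 0.131 and 6.77e-04. In collagen VI, *Col6a1* had 0.80 and 0.65 and *Col6a4* 2.59 and 1.54, with adult adjusted p of 0.102 and 0.132. *Col6a2* had 1.24 and 1.14 and was called in adults as well (adjusted p = 4.57e-04), and *Col6a5* and *Col6a6* had 0.97 and −0.05 in adults (adjusted p = 0.289 and 0.976). *Col6a3*, which was not called in juveniles at 0.13, had 0.91 in adults (adjusted p = 0.0742). *Rnf17* gave 1.93 and 1.46 (adult adjusted p = 0.0953).

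Other genes, also called by their juvenile values, were nearer to 0 in adults. *Aire* went from 1.74 in juveniles to 0.20 in adults (adult adjusted p = 0.795; interaction adjusted p = 0.396). *Man2b2* went from 0.61 to 0.23 (interaction adjusted p = 0.513), *Mpeg1* from −0.38 to −0.13 (interaction adjusted p = 0.684) and *Cyp26b1* from −0.38 to −0.19 (interaction adjusted p = 0.833). *Pkn3*, at −0.88, was 0.08 in adults (interaction adjusted p = 0.720). Not every called lower gene was nearer to 0 in adults. *Grin3a* had −0.37 in juveniles and −0.43 in adults (adult adjusted p = 0.0367), and *Pcdhga10* had −0.58 and −0.54 (adult adjusted p = 0.0560).

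**Figure D5:**
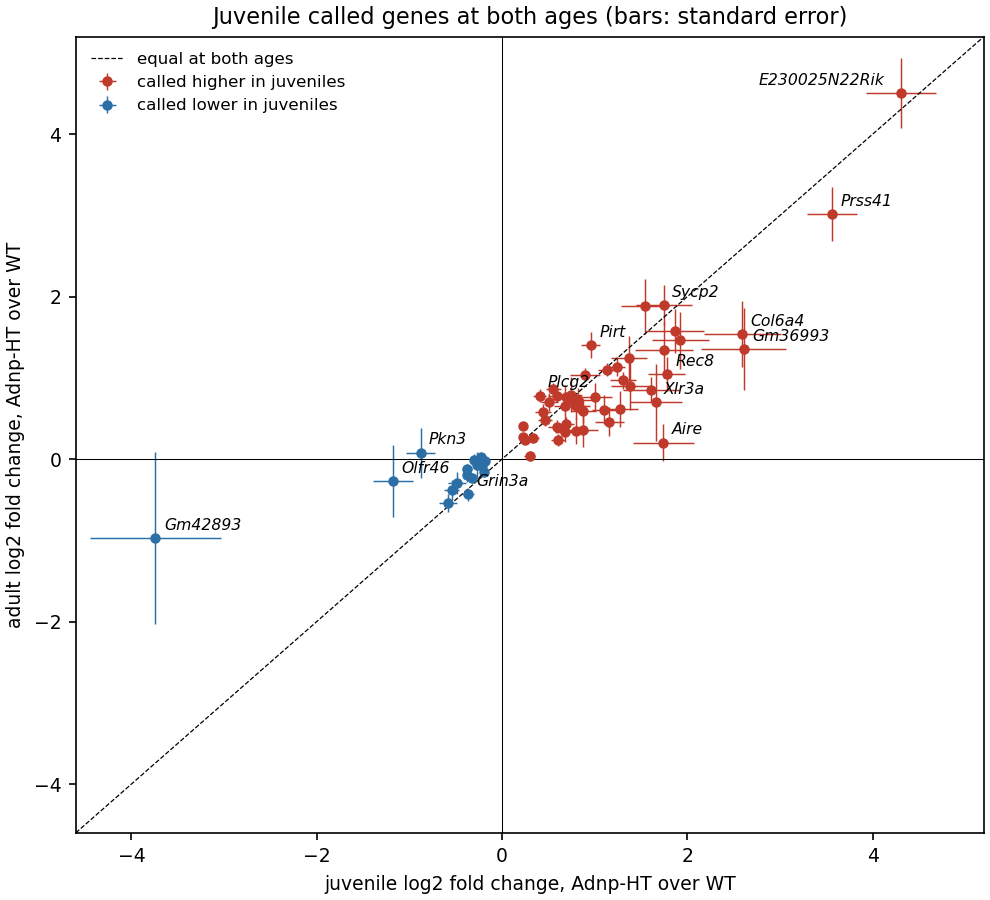
Log2 fold change in adults against that in juveniles, libraries labelled Adnp-HT over WT, for the 65 juvenile called genes tested at both ages, with standard errors as bars and the line of equal change dashed. Genes called higher in juveniles lie above 0 on both axes, 49 of 49. Of the 16 genes called lower, 14 lie below 0 in adults, with a median of −0.17 over the 16.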

How the data were processed

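Hippocampal RNA was sequenced for the authors by the company Macrogen from unstranded TruSeq RNA v2 libraries, 5 per genotype at each age. By the submitters' notes, the authors quantified reads with Salmon 1.1.0 on GRCm38 with GC-bias correction, summed transcripts to genes with tximport in R 3.5.3, and normalized with DESeq2 1.30.1. The deposited signal is the resulting normalized count, estimated and so not whole. The depth in raw reads is unknown from these values, so no counting interval is given.

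Genes that averaged 10 or more across the juvenile libraries were tested on log2(value + 1) with limma 3.58.1 (trend, R 4.3.3), 5 Adnp-HT against 5 WT libraries, with Benjamini-Hochberg adjustment over all genes tested and a threshold of 0.05. Each library is 1 mouse and the replicate. Values of the *Adnp* locus, single or summed, were compared by a two-sided exact permutation test, with 252 splits of 5 against 5 libraries and a smallest possible p of 0.00794. The code was tested on simulated data with 200 changed genes. Adults and the interaction of genotype and age were fitted in the same way, the interaction over 20 libraries. Gene positions and kinds are from GENCODE mouse release 21. Figures were drawn in Python 3.11.15 with matplotlib 3.10.9.

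Genes were named by rule: *Adnp*, *Gm20716* and *Dpm1*, the 15 largest increases and 10 largest decreases among called genes, called list members, the most abundant member and the member with the lowest p of each of 29 gene lists, and called genes within 5 Mb of *Adnp*. Some genes that this rule or the call would name are not reported here. The members and lists were chosen with earlier results of these data known. Alternatives were pseudocounts of 0.1 and 5, other limits on the mean, quantile normalization, a replicate block, postnatal day as a covariate, mice of postnatal day 21 alone, a fit of all 20 libraries, no trend, and each library left out. The fit without both libraries of uncertain postnatal day and the distances between called genes, with each way of measuring them, were chosen after the data were seen. Exon-level reads of *Adnp* were not analysed here.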

Additional observations from a re-analysis of the deposited data

Results flagged for a closer look

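A test for 1 outlying library among the 5 of a genotype (Dixon's ratio, critical value 0.71) was applied to 310 groups of values, and it marked 30. The groups hold the called genes reported here, the other genes chosen by rule or shown by library, and the list sums. Chance marks about 1 in 20 groups. Whether a marked value reflects the animal or the dissection was not tested.

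Among called genes, *Col6a2* was low in Adnp-HT replicate 2 at 1037 (others 1275 to 1355), and *Pcdhga2* was low in the same library at 489.5 (others 604 to 644) and high in WT replicate 5 at 457 (others 382 to 398). *Rnf17* was low in Adnp-HT replicate 5 at 27.8, and *Aire* was high in Adnp-HT replicate 1 at 34.4. *Best1* was high in WT replicate 1 at 41.3 (others 11.6 to 15.7). *Gm42893* was 15.2 in Adnp-HT replicate 4 and 0 in the other 4. *Ifitm2* was low in Adnp-HT replicate 2 at 188 (others 250.4 to 261). In Adnp-HT replicate 3, *Sncg* was high at 132 (others 104 to 107) and *AC171111.1* low at 261 (others 295 to 306).

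WT replicate 3 was marked 6 times: *Ttr* at 57648 and the choroid plexus sum at 62821, both high, *Prlr* high at 598 (others 71.7 to 186), *Smarcc2* low at 8689, *Scn7a* low at 56.7 (others 92.2 to 102), and the sum of microtubule proteins low at 313103. WT replicate 4 was also marked 6 times, with *Zfp992* high at 96.5 (others 42.3 to 55.7), *Snrpn* low at 22896, *Snap25* low at 47899, *Ptprz1* high at 10884, *Stmn2* high at 12849 and *Pcdhgc5* high at 5557. *Tubb3* was low in WT replicate 2 at 9318.

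Adnp-HT replicate 5 had *Stmn2* high at 14318, *Kif5a* low at 61268 and the sum of endothelial and pericyte markers low at 14481.5. *Krt222* was low in Adnp-HT replicate 4 at 1119.6, and *Prox1* was high in Adnp-HT replicate 2 at 5339. *Pcdhb7* was low in Adnp-HT replicate 1 at 188 (others 244 to 261), and *Krt12* was high in Adnp-HT replicate 3 at 89.4 (others 72.5 to 75.9). The interaction with age marked 0 genes.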

How the results depend on the processing

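The 67 called genes (50 higher, 17 lower) became 69 (52, 17) with a pseudocount of 0.1, 68 (51, 17) with 5, 71 (53, 18) with all genes above 0 tested and 66 (50, 16) after quantile normalization. With a mean of at least 100 they were 39 (29, 10), where fewer genes were tested. They were 59 (45, 14) with postnatal day of the labels as a covariate, 67 (51, 16) with that of the column names, 12 (11, 1) in mice of day 21 alone, where fewer mice were compared, 110 (77, 33) with all 20 libraries in 1 fit and 31 (24, 7) without the trend. Leaving out 1 library gave 26 to 59 (20 to 47 higher, 5 to 14 lower), and leaving out both libraries of uncertain postnatal day 25 (21, 4). No called gene changed sign in any setting where it was tested. The cause of the differences was not tested.

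With the replicate number as a block there were 39 juvenile called genes (34 higher, 5 lower) and 39 adult called genes. The libraries are not paired by the labels beyond that number: deviations of equal numbers correlated at 0.0113, −0.0676, 0.00615, −0.0699 and −0.118, and 0 libraries correlated best with their own number. The interaction called 0 genes in every setting.

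The sum of *Adnp* and *Gm20716* ranged from 94.5% to 96.8% of WT when 1 library was left out and was 98.23% in mice of day 21. With *Dpm1* added, the range was 99.8% to 102.1%, and 99.8%, below WT, came without Adnp-HT replicate 5.

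Log2 fold changes near 0 reversed in some settings, and the cause was not tested. After quantile normalization they were 0.0454 (*Camk2a*), 0.0000 (*Meg3*) and −0.0249 (*Gria2*). In mice of day 21 they were −0.0117 (*Rgs5*), −0.2732 (*Ptgds*) and −0.0027 (*Gria2*). Without both libraries of uncertain postnatal day they were −0.0024 (*Tubb3*), −0.0129 (*Nnt*, ENSMUSG00000116207), 0.0017 (*Camk2a*), −0.0504 (*Calb2*), 0.0188 (*Kif5a*), −0.0083 (*Meg3*) and 0.1010 (*Ttr*). Leaving out 1 library gave −0.0842 to 0.0109 for *Kif5a*, −0.049 to 0.0021 for *Col4a2*, −0.0172 to 0.0481 for *Meg3*, −0.034 to 0.0825 for *Mbp*, −0.473 to 0.077 for *Nnt* (ENSMUSG00000025453), −0.1283 to 0.2634 for *Ptgds*, −1.1389 to 1.8421 for *Ttr* and −0.0256 to 0.0376 for *Gria2*.

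With 5 mice per genotype, many calls rest on single libraries, and a gene that was not called is not shown to be unchanged. The raw depth is unknown, so genes with a mean near 10 carry counting noise that cannot be sized. Bulk tissue mixes cell types, WT replicate 3 holds choroid plexus, and the postnatal day of 2 libraries is uncertain. The value of *Adnp* alone goes against the labels and its sum with *Gm20716* follows them. With *Dpm1* added the sum was 101% of WT (exact permutation test, p = 0.579), and none of these values shows the loss of exon 5. Estimated counts of overlapping genes and near copies can trade reads with each other.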
